A study of Homo sapiens with 42 samples.

Results

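PC9 and H1975 are established human lung adenocarcinoma lines that carry mutant EGFR, the receptor tyrosine kinase blocked by osimertinib. The question was whether chromatin opened and closed at the same places when each line passed into drug tolerance, and the measurement is the difference between the lines in the change from control to drug tolerant persister (DTP) cells, written (H1975 DTP minus H1975 control) minus (PC9 DTP minus PC9 control) on the log2 scale and called the interaction below. A positive interaction is a change that was higher in H1975 than in PC9. The members were the accessible regions that the annotated tables of both lines list, matched one to one where they overlap by at least 50% of their length. There were 46044 of them, which is 66.2% of the 69565 annotated regions of PC9, 59.8% of the 76952 of H1975, and a subset of the 242490 annotated regions of the whole series.

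The series holds 42 ATAC-seq libraries (sequencing of open chromatin by transposase insertion) in 14 groups of 3 from 4 EGFR-mutant lines, and 12 libraries in 4 groups carry the comparison. DTP cells were cultured in 500 nM osimertinib for 24 days. Control cells had 21 days without drug and 3 days in the solvent DMSO. In further groups used as a second reading, the compound AZD5153 was given at 150 nM for the last 3 days, either after 21 days without drug (AZD5153 alone) or after 21 days of 500 nM osimertinib (combination). The samples are described as biological triplicates of frozen cells, and the 2 lines differ in much besides their response to drug, so an interaction belongs to the lines and not to any one of their differences. The cultures are bulk samples, in which fewer open cells and less access per cell cannot be told apart. Total counts over all regions were 3989287 to 5136258 per PC9 library and 7853163 to 9547244 per H1975 library, so that the median standard error (SE) of a log2 fold change was 0.193 in PC9, 0.144 in H1975 and 0.251 for the interaction. All 8 epithelial marker promoters checked were accessible in both lines, with a summed level of 581.8 to 598.4 CPM (the depth-normalised count) in control and 604.3 to 625.5 in DTP libraries of PC9, and of 671.4 to 683.5 and 770.9 to 807.9 in those of H1975. Of 3 lung markers the PC9 table held only the promoter of NKX2-1, the lung lineage factor, whereas the H1975 table held all 3. Of 7 leukocyte markers only CD14 and CD68 had a promoter region, and their summed level was lower in DTP than in control libraries of both lines (46.1 to 47.9 against 21.9 to 31.6 CPM in PC9, 95.5 to 103.6 against 66.9 to 72.3 in H1975). Fibroblast and endothelial promoters were present for 4 of 8 markers in PC9 and 5 of 8 in H1975, summing to 79.9 to 90.4 in control and 74.3 to 78.4 in DTP libraries of PC9, and to 80.7 to 89.9 and 103 to 107.2 in those of H1975.

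An accessible region is a stretch of DNA that is free enough of nucleosomes to be cut by the transposase, and marks a promoter, an enhancer or another site where proteins bind. When EGFR is blocked, the ERK pathway below it falls silent, and transcription factors at its end, such as the ETS factors and the AP-1 dimers of FOS and JUN proteins, lose input. A small share of cells survives for weeks in a slow cycling state, which is reversible and known to involve chromatin. NF-Y is a trimeric factor that binds the CCAAT box, an element common in the promoters of cell cycle and housekeeping genes. AP-1 binds TGANTCA and is a main occupant of distal enhancers.

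The promoter windows below are shown because the share of promoters holding CCAAT or TGANTCA differed between the classes, as described after the counts. Single windows need not follow that share. They were chosen after their values were seen. Each is the RefSeq window from 250 bases before to 50 bases after a start (GRCh38.p14), read 5′ to 3′ along the gene, with CCAAT on either strand and TGANTCA in capitals. TYK2 (chr19:10380523-10380822, minus strand), IL11RA (chr9:34651935-34652234, plus strand) and ZNF775 (chr7:150379080-150379379, plus strand) rose in PC9 and fell in H1975. SCGB1D2 (chr11:62241989-62242288, plus strand) did the same without a CCAAT. LRRC20 (chr10:70376743-70377042, minus strand) fell in PC9 and rose in H1975, and ADGRF4 (chr6:47698330-47698629, plus strand) fell in H1975 only.
TYK2: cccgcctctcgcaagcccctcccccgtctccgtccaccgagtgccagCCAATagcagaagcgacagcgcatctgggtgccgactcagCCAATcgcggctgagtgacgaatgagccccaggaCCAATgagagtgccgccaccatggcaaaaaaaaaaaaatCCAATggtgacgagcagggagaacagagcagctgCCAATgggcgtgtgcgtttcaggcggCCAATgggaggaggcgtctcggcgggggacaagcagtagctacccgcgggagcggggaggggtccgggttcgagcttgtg
IL11RA: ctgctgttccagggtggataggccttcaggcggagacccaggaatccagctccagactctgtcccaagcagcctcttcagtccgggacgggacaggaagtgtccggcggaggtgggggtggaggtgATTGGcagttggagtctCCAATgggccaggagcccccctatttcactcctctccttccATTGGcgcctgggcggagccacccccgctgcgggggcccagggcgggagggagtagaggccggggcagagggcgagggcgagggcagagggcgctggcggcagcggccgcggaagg
ZNF775: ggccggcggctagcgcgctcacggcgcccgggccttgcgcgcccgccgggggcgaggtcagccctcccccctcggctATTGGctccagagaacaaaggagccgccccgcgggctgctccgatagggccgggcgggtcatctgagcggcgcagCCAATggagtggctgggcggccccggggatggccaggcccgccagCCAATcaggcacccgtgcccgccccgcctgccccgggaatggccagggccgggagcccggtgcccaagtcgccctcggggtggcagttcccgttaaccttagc
SCGB1D2: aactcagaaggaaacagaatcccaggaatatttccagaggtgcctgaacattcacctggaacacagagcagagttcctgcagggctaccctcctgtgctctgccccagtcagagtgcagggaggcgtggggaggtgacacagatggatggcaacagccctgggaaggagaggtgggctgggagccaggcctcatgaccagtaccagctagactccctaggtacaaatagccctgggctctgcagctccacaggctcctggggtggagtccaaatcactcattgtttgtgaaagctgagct
LRRC20: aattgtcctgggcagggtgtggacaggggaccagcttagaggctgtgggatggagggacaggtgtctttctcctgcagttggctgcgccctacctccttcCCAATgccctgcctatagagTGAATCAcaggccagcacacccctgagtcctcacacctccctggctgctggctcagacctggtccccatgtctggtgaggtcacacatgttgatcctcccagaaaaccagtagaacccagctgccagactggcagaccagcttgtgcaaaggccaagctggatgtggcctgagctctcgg
ADGRF4: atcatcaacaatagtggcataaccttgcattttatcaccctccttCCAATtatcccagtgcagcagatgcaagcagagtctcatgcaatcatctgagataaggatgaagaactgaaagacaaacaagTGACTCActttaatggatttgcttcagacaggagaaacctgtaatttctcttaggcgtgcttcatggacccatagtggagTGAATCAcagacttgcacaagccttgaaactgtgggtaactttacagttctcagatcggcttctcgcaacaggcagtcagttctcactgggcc

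The 3 promoters with several CCAAT boxes moved by modest amounts and in every library. At TYK2, a Janus kinase of cytokine receptors, the level was 60, 57.8 and 69.2 CPM in PC9 control and 96.2, 84.9 and 92.4 in PC9 DTP libraries. In H1975 it was 69.2, 75.5 and 58.1 in control and 42.4, 46.7 and 52.7 in DTP libraries. No library of one state overlapped the other state in either line. The window holds 6 CCAAT boxes, and the interaction was −1.05 ± 0.12 (SE; edgeR quasi-likelihood test, Benjamini-Hochberg adjusted p = 1.48e-16). IL11RA, the receptor of interleukin 11, has 3 boxes and changed by 0.54 ± 0.16 in PC9 and −1.21 ± 0.09 in H1975 on the log2 scale. ZNF775, a zinc finger gene with 3 boxes, changed by 0.48 ± 0.08 and −0.71 ± 0.07. SCGB1D2, a secretoglobin with no box in its window, changed by 1.09 ± 0.20 and −1.31 ± 0.16.

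The interaction was common. Of 46038 regions tested, 16801 had an interaction at an adjusted p under 0.05 (edgeR quasi-likelihood test), which is 36.5% of them, and 20409 had an unadjusted p under 0.05. It was higher in H1975 at 7923 (17.2%) and lower at 8878 (19.3%). Within the lines, 7479 regions rose and 8377 fell in PC9 (34.4% called), and 13582 rose and 13940 fell in H1975 (59.8% called). After the deeper H1975 libraries were thinned to the depth of PC9, 14124 interactions were called. The balance of higher and lower calls followed the scaling. With library size alone it was 10299 higher and 6909 lower, 59.9% higher in place of 47.2%, and with factors computed in each line alone it was 9796 and 7195, 57.7% higher. The median interaction over all regions was then 0.13 and 0.11, against 0.01.

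Opposite changes made up a minority of the differences between the lines. Of the 11300 regions called in both lines, 8984 moved in the same direction and 2316 in opposite directions, and each of those 2316 had a called interaction. In 994 of them accessibility rose in H1975 and fell in PC9, with medians of 0.66 and −0.67. In the other 1322 it rose in PC9 and fell in H1975, with medians of 0.55 and −0.50. Most of these changes were small, and 63 and 99 of them reached 1 on the log2 scale in both lines. The split of the opposite regions also followed the scaling, with 1289 and 969 under library size alone and 1391 and 875 under factors computed in each line alone.

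Changes in one line made up the larger share. At 8393 regions H1975 was called and PC9 was not, of which 4215 rose and 4178 fell, with H1975 medians of 0.87 and −0.87. At 2586 regions PC9 was called and H1975 was not, of which 1381 rose and 1205 fell, with PC9 medians of 0.63 and −0.79. A line that is not called is not thereby unchanged, so a stricter form asked that the 95% interval of the other line lie within 0.5 of 0. It held at 1615 and 1881 of the H1975 regions that rose and fell, and at 1060 and 801 of the PC9 regions. A further 2958 regions moved the same way in both lines by different amounts, 902 up and 2056 down, and 548 had a called interaction with neither line called. At 9799 regions only one line was called but the interaction was not, and no difference between the lines was shown there.

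**Figure D1:**
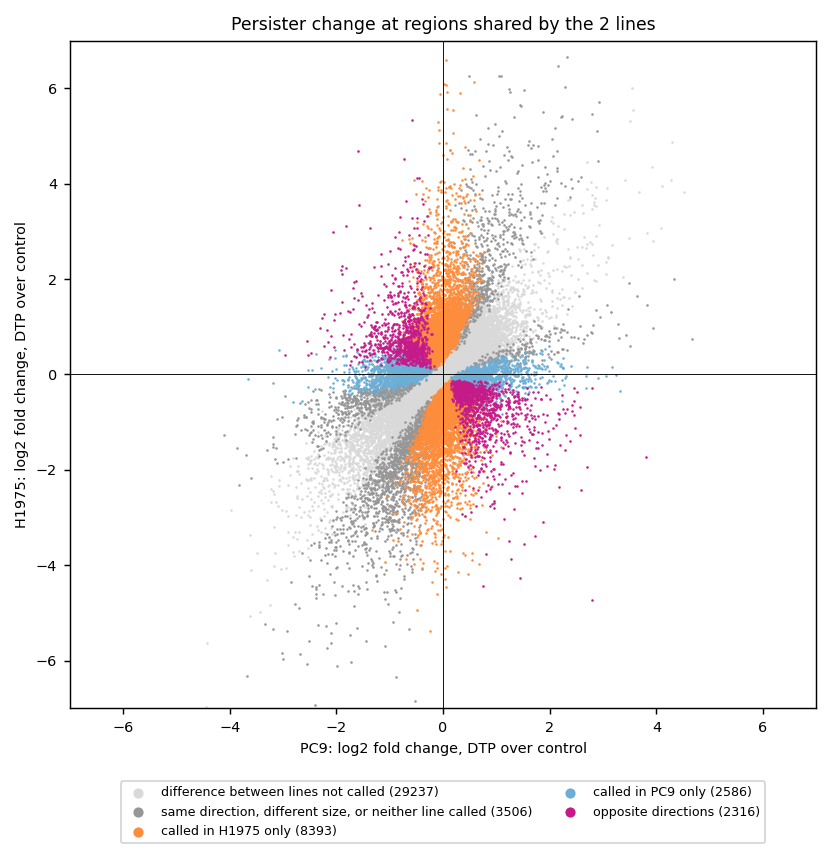
Log2 fold change from control to DTP in PC9 (horizontal) and H1975 (vertical) at the 46038 regions tested, 1 point per region, coloured by class with the number of regions in the legend; 1 point lies outside the axes. Opposite changes (2316) fill the upper left and lower right quadrants, and regions called in H1975 only (8393) lie along the vertical axis.

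The opposite classes differed in where they started. At regions that rose in H1975 and fell in PC9, the median level in control cells was 21.3 CPM in PC9 and 9.83 in H1975, and in DTP cells 12.6 and 16.6. The level was higher in H1975 at 20.2% of them in control and at 68.2% in DTP cells. At regions that rose in PC9 and fell in H1975 the median was 17.1 in PC9 and 33.9 in H1975 control cells, and 26.5 and 21.3 in DTP cells, and the share higher in H1975 went from 82% to 32.1%. The lines were closer to each other in the DTP state at 58.8% and 60.1% of the opposite regions, at 66.7% of those that rose in H1975 only, at 85.5% of those that rose in both lines and at 52.1% of regions without a called interaction, so a smaller gap was not particular to the opposite classes. Control values enter both the starting level and the change, so these shares describe the classes and carry no test.

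The classes also differed in position relative to genes. Promoters within 1 kb of a start made up 46.2% of all regions tested, 47.5% of the opposite regions that rose in PC9, and 23.5% of those that rose in H1975. They made up 65.4% of regions that rose in PC9 only and 25.5% of those that fell in PC9 only. In H1975 the corresponding shares were 41.4% and 34.9%. An interaction was called at 28.6% of promoters, 45.7% of intronic regions and 42.3% of distal intergenic regions.

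The regions named for opposite change had a mean level above the median of tested regions in both lines. Among these the largest smaller changes of the 2 lines were taken. Every DTP library also lay on one side of every control library in each line. Their level, size and separation are thus part of the choice, and regions not named can have larger changes. Each is given with the gene whose start is nearest in the tables (hg38), which need not be the gene it acts on. The largest smaller change among the named ones that rose in H1975 was at chr10:70578339-70578840. This region lies 23847 bases downstream of the start of PRF1, the pore-forming protein perforin of killer lymphocytes. It read 29.5, 25 and 38.5 CPM in PC9 control and 16.9, 14.9 and 14.9 in PC9 DTP libraries, against 9.85, 11.7 and 9.13 in H1975 control and 30.8, 39.2 and 31.2 in H1975 DTP libraries. PC9 thus started at about the level that H1975 ended at. The log2 changes were −1 ± 0.163 and 1.72 ± 0.143, with an interaction of 2.72 ± 0.216 (adjusted p = 5.12e-31).

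Others of the named regions lie at promoters. The MESP2 promoter region (chr15:89761126-89761627), at a developmental transcription factor gene, read 62.2, 61 and 60.5 CPM in PC9 control and 33.4, 33.8 and 35.1 in PC9 DTP libraries, and 15.8, 15.7 and 18.7 in H1975 control and 41.5, 42 and 39.5 in H1975 DTP libraries. The replicates of each group lay close together and the order of the lines turned over between the states. Its interaction was 2.13 ± 0.159 (adjusted p = 1.27e-33). The promoter region of EFCAB13-DT, a divergent transcript (chr17:47305501-47306002), fell from 42.1 to 45.1 CPM to 22.8 to 25 in PC9 and rose from 19.6 to 21.7 to 40.4 to 45.5 in H1975. Its interaction was 1.91 ± 0.168 (adjusted p = 3.32e-25). A distal region 20631 bases upstream of PTGES, the prostaglandin E synthase, had an interaction of 1.79 ± 0.167, and one near RPL13, a ribosomal protein gene, of 1.88 ± 0.186.

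The named regions that rose in PC9 and fell in H1975 included the largest interaction among the named opposite ones, at chr10:79331646-79332147. This region lies 15322 bases upstream of PPIF, which encodes cyclophilin D of the mitochondrial permeability pore. It read 5.82, 9.99 and 5.24 CPM in PC9 control and 35.3, 37.7 and 38.6 in PC9 DTP libraries, and 49.2, 45.1 and 55.7 in H1975 control and 17.6, 22 and 16.8 in H1975 DTP libraries. The region was lowest in PC9 control cells and was the more open in PC9 after drug. The log2 changes were 2.38 ± 0.213 and −1.40 ± 0.106 and the interaction −3.78 ± 0.238 (adjusted p = 3.4e-52). A region 34110 bases downstream of the start of BLVRA, biliverdin reductase A (chr7:43834519-43835020), read 20.1, 12.1 and 11.9 CPM in PC9 control and 30.1, 41.3 and 26.3 in PC9 DTP libraries, and 93.1, 87.8 and 83.5 in H1975 control and 33.9, 37 and 30.5 in H1975 DTP libraries. Here the lines came from far apart to overlapping levels. Its interaction was −2.56 ± 0.184 (adjusted p = 2.36e-36). Regions near MARCO, a scavenger receptor (−2.47 ± 0.209), PLCZ1, a sperm phospholipase (−2.20 ± 0.17), and DHFR2, a dihydrofolate reductase (−2.19 ± 0.21), made up the rest.

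**Figure D2:**
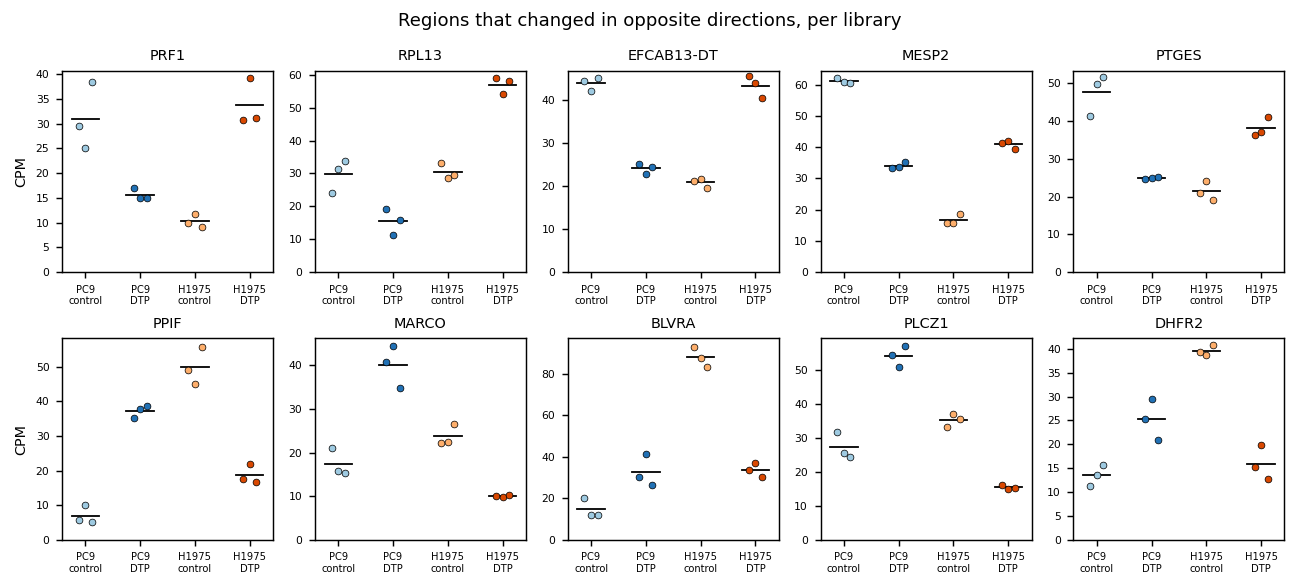
CPM in each of the 3 libraries of each group (points; horizontal lines are means) for the 10 regions named for opposite change, titled by nearest gene. In the upper row PC9 falls and H1975 rises; in the lower row PC9 rises and H1975 falls, as at PPIF, from 5.24 to 9.99 up to 35.3 to 38.6 in PC9 and from 45.1 to 55.7 down to 16.8 to 22 in H1975.

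The regions named for change in 1 line were taken from the stricter form, by the largest change. The flat other line, the separation of libraries and the size of the change are thus part of the choice. Among those named in H1975 only, the largest rises started from almost no counts. A region 97383 bases upstream of VGLL2, a cofactor of TEAD factors (chr6:117167674-117168175), read 0.246, 0.425 and 0.668 CPM in H1975 control and 34.6, 27.5 and 27.9 in H1975 DTP libraries. In PC9 it was open throughout, at 62.8 to 70.3 in control and 65.8 to 74.4 in DTP libraries, a change of 0.07 ± 0.091. The H1975 control libraries held 6 counts together and the DTP libraries 451, a ratio of 65.6 (95% interval 29.9 to 180, counting error only). An intronic region of PTPRM, a receptor phosphatase, went from 1 count to 111, a ratio of 96.9 (17 to 3860), and an intronic region of C6orf132 from 2 to 133, a ratio of 58.1 (15.8 to 484). At the promoter of EPB41L4A (chr5:112228592-112229093), a protein of the membrane skeleton, H1975 rose from 2.71, 3.19 and 0.668 CPM to 32.8, 32.9 and 35.9, while PC9 stayed between 19.9 and 31.1. In these 4 regions H1975 control cells were closed where PC9 control cells were open.

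The regions that fell in H1975 only included one 3650 bases upstream of CD274, the gene of the immune checkpoint ligand PD-L1 (chr9:5446352-5446853). It read 33.2, 35.3 and 33.8 CPM in H1975 control and 2.68, 1.87 and 1.12 in H1975 DTP libraries. PC9 read 11.2, 9.28 and 12.6 in control and 10.3, 13.4 and 8.78 in DTP libraries, which overlap. The H1975 change was −4.19 ± 0.281 and the interaction −4.16 ± 0.358 (adjusted p = 1.69e-29). A region 55105 bases upstream of FBXO32, the ubiquitin ligase atrogin-1, fell by 4.28 ± 0.203 in H1975 with a PC9 change of 0.03 ± 0.176. An exonic region of STRIP2 fell by 4.47 ± 0.384 against 0.05 ± 0.122. The ADGRF4 promoter printed above, of an adhesion receptor gene, read 49.5, 58.7 and 53.2 CPM in H1975 control and 10.5, 9.9 and 8.41 in H1975 DTP libraries, and 47.8 to 60.9 across both states of PC9.

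Among the regions named in PC9 only, the largest rise was at chr17:75908126-75908627. This region lies 1190 bases from a start of MRPL38, a mitochondrial ribosomal protein gene. It read 3.58, 4.99 and 2.8 CPM in PC9 control and 32.7, 34.6 and 35.5 in PC9 DTP libraries, against 30.9 to 40.2 and 37.5 to 43.7 in H1975. The H1975 change of 0.16 ± 0.092 became a call with library size alone, with the count filter of 50, without H1975 control replicate 2 and without H1975 DTP replicate 1, so that its class rests on small shifts in H1975. The promoter of ZNF578, a zinc finger gene, read 1.79, 1.43 and 2.1 in PC9 control and 6.98, 9.04 and 5.34 in PC9 DTP libraries, below the 21.9 to 27.8 of H1975. Regions near TAF1L (2.90 ± 0.409), an intronless copy of TAF1 for which shared reads leave the value uncertain, and DKFZp451B082 (2.69 ± 0.428) rose likewise.

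The falls in PC9 only included the promoter of TACC3, a protein of the mitotic spindle (chr4:1731244-1731745). It read 26.9, 20.7 and 22.7 CPM in PC9 control and 5.51, 5.5 and 4.58 in PC9 DTP libraries, and stayed at 41.6 to 48.5 in all H1975 libraries. The PC9 change was −2.15 ± 0.248, the H1975 change −0.05 ± 0.085 and the interaction 2.10 ± 0.262 (adjusted p = 9.8e-16). An intronic region of CFAP74, a ciliary gene, fell by 2.46 ± 0.243 in PC9, and H1975 was not called except with library size alone. At FAM86C2P, a pseudogene of a multicopy family with uncertain read assignment, PC9 had 79 counts in control and 6 in DTP libraries, a ratio of 13.1 (95% interval 5.78 to 36.9).

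**Figure D3:**
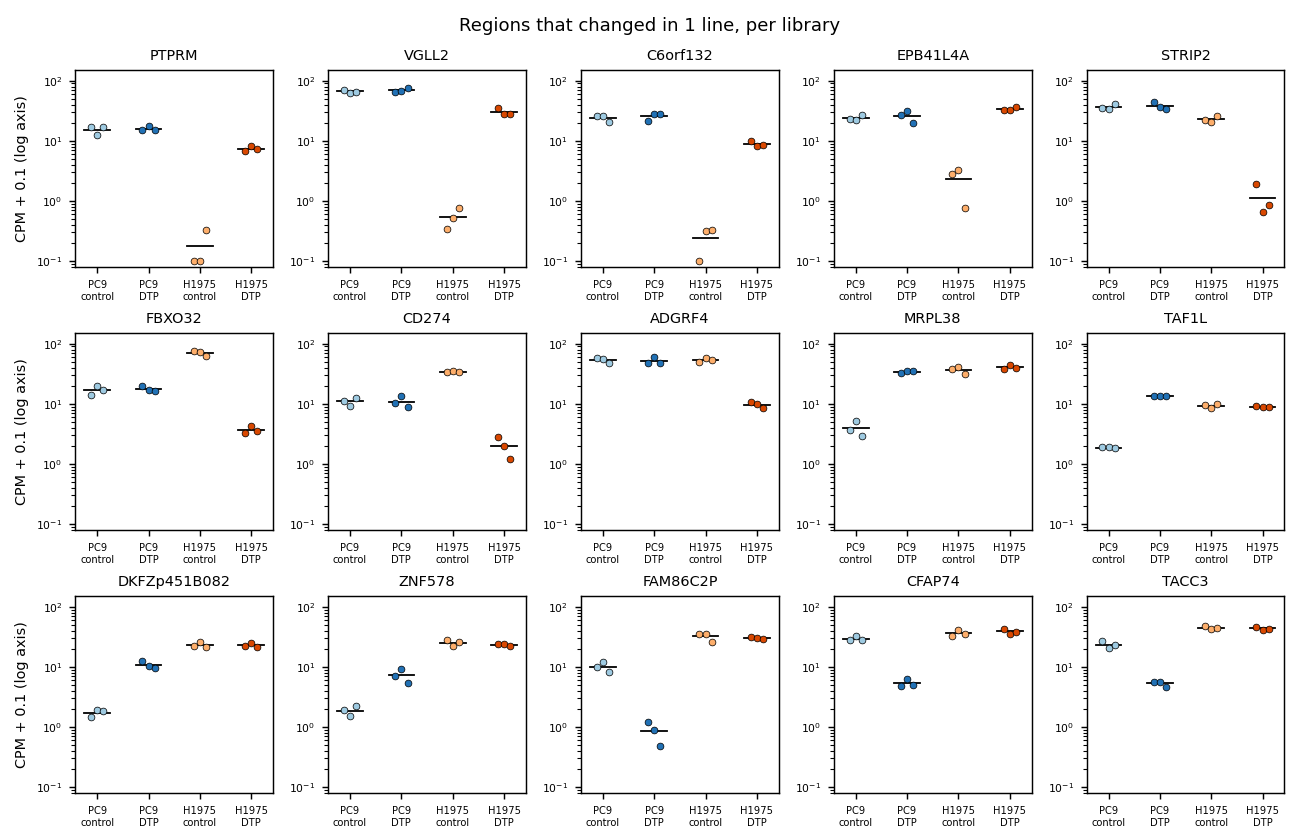
CPM plus 0.1 on a log axis in each library (points; lines are means) for the regions named for change in 1 line, titled by nearest gene. H1975 moves alone in the panels from PTPRM to ADGRF4 and PC9 alone in those from MRPL38 to TACC3, where H1975 lies between 41.6 and 48.5.

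Lists of genes were read by their regions, with the shares of 17.2% higher and 19.3% lower over all regions as the background. E2F8, AURKB, FOSL2, MAFK, SMAD3, TGFBR3, COL1A1, ELF3, KRT8, EGFR and BTC hold the regions taken from their lists by the naming rule, and other regions in these paragraphs were chosen after their values were seen. Cell cycle genes leaned furthest to lower: of 57 regions at 23 genes, 24 were lower in H1975 and 3 higher, and 11 were opposite regions that rose in PC9. The promoter of E2F8, a repressor of the E2F family, read 46.1, 53.2 and 46.9 CPM in PC9 control and 65.4, 59 and 74.4 in PC9 DTP libraries, and 36.9, 31.9 and 32.5 in H1975 control and 19, 20.9 and 20.8 in H1975 DTP libraries. Each line's states were apart, in opposite directions, and the interaction was −1.17 ± 0.15. The promoters of AURKB, a mitotic kinase (−1.07 ± 0.22), TOP2A, a topoisomerase (−0.86 ± 0.14), and the replication helicase subunits MCM3 (−0.72 ± 0.11) and MCM5 (−0.72 ± 0.13) did the same. The median interaction over the list was −0.41, against 0.01 over all regions. The promoters of PLK1, CCNA2 and BUB1 were not among the lower ones, with interactions of 0.52 (called), −0.10 and 0.02.

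Cholesterol and fatty acid synthesis had 18 lower and 9 higher of 64 regions. The promoters of FDPS (−0.55), HMGCS1 (−0.37) and IDI1 (−0.43), which act in the mevalonate pathway, rose in PC9 and fell in H1975. The lipid list's median interaction was −0.19, and it was −0.07 with library size alone and −0.09 with factors computed in each line alone.

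AP-1 genes leaned higher in H1975, with 20 higher and 6 lower of 61 regions, of which 9 were opposite regions that rose in H1975. A region 1863 bases upstream of FOSL2, a FOS family subunit (chr2:28390084-28390585), read 44.3, 41.7 and 42 CPM in PC9 control and 31.2, 27.5 and 31.3 in PC9 DTP libraries, and 15, 14.7 and 12.5 in H1975 control and 38.6, 42.4 and 39.5 in H1975 DTP libraries. The states did not overlap in either line, and the interaction was 2.02. The 10 Mb window around the region had a median change of −0.31 in PC9, in the direction of its own change there. The promoter of MAFK, a small MAF protein that pairs with related factors, had 3 opposite regions, with interactions of 0.76, 1.64 and 1.85. A region near FOS had changes of −1.88 in PC9 and 0.82 in H1975, and one at FOSL1 of −0.71 and 0.30. At JUN the promoter region went the other way, with an interaction of −0.35.

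TGF-beta and BMP response genes were higher at 36 and lower at 11 of 108 regions, and mesenchymal genes at 15 and 7 of 56. An intronic region of SMAD3, a signal transducer of TGF-beta, read 1.23, 1.7 and 1.11 CPM in H1975 control and 19, 21.7 and 20.4 in H1975 DTP libraries, and 26.8 to 37.8 in PC9 control and 35.3 to 44.4 in PC9 DTP libraries. H1975 rose from near closed, PC9 rose a little from open, and the interaction was 3.54. The PC9 change was 0.34 ± 0.126, and the class of a rise in both lines was kept in 18 of 27 alternatives. The TGFB2 promoter, of a ligand, changed by −0.42 in PC9 and 1.22 in H1975. The promoter of COL1A1, a fibrillar collagen, had an interaction of 1.38 and an intronic region of TGFBR3, a coreceptor, one of 3.34. The VIM promoter, of the intermediate filament vimentin, changed by −1.01 in PC9 and 0.36 in H1975. Other regions went the other way, and those near MMP2 (−3.04) and TWIST1 (−1.79) fell in H1975 only.

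Epithelial genes had 43 lower and 20 higher of 117 regions, although the summed level of the 8 epithelial marker promoters was higher in DTP than in control libraries of H1975. The EGFR family with its ligands had 23 lower and 8 higher of 68. A distal region of ELF3, an epithelial ETS factor (chr1:202047039-202047540), read 42.3, 43.8 and 34.5 CPM in H1975 control and 1.34, 2.24 and 3.37 in H1975 DTP libraries, and 27.2 to 38.9 in PC9. It was open in 3 groups and nearly closed in H1975 DTP cells, with an interaction of −3.96. KRT8, a keratin of simple epithelia, had an opposite region 5323 bases from its start with an interaction of 3.15. A region 33187 bases upstream of EGFR read 79.3, 80.2 and 80.4 CPM in H1975 control and 11.2, 11.6 and 11 in H1975 DTP libraries, and 28.9 to 42.5 and 26.7 to 28.7 in PC9. It fell by 2.82 in H1975, and the PC9 change of −0.28 was called as well with factors computed in each line alone, with the medians of 10 Mb windows removed and without PC9 control replicate 2. Of the ligands, regions near BTC (−2.16) and TGFA (−2.88) were lower, and one near HBEGF was opposite, with changes of −0.81 in PC9 and 3.30 in H1975.

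In the remaining lists no side took a clear lead. ERK feedback and early target genes had 25 higher and 28 lower of 134 regions, with an ETV1 region at 62.6 to 70.9 CPM in H1975 control and 8.23 to 11 in H1975 DTP libraries (interaction −2.73), while a region of DUSP5 fell in both lines (−2.39). YAP and TEAD targets had 29 and 22 of 112, with regions of AMOTL2 (3.17) and TEAD1 (1.79) opposite and higher in H1975. Other receptor tyrosine kinases had 8 and 13 of 57, where a region of MET was opposite and rose in PC9 (−1.45). The H1975 change of the MET region was small (−0.21 ± 0.081), and its opposite class was kept in 16 of 26 alternatives. It was lost with library size alone, with DESeq2 in place of edgeR and with H1975 thinned to the depth of PC9, among others. One promoter region of IGF1R fell in H1975 only (−1.72), whereas another rose in H1975 only (0.76). BCL2 family genes had 8 and 12 of 59, with a region of HRK at 1.5 and one of BMF at −1.08. The lean of the ERK, receptor kinase and BCL2 lists turned to higher under library size alone and under factors computed in each line alone. Lung alveolar genes had 8 and 6 of 40, gut and liver lineage factors 3 and 3 of 18, interferon and antigen presentation genes 8 and 8 of 44, leukocyte markers 1 and 1 of 7, and fibroblast and endothelial markers 9 and 9 of 34.

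Summed over all matched regions that share a nearest gene, 16884 genes were tested and 6745 had a called interaction (39.9%). The sums were opposite at 934 genes, of which 430 rose in H1975 and 504 in PC9. H1975 alone was called at 1738 up and 1652 down, and PC9 alone at 566 up and 470 down. Single regions and sums are not the same thing: 2010 genes had an opposite region, 242 had at least 2, and of those 93 had all higher in H1975, 74 all higher in PC9 and 75 both. Of 3750 genes with at least 2 called interactions, 1955 held calls of both signs.

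The clearest opposite locus by sum was next to MIR6775, a microRNA gene, where 5 regions lie within chr16:87827215-87832476. The sum read 57.8, 50.1 and 69.3 CPM in PC9 control and 11, 11.4 and 19.4 in PC9 DTP libraries, and 19.9, 27.5 and 24.9 in H1975 control and 58.9, 38 and 53 in H1975 DTP libraries. The lines exchanged levels, with changes of −2.09 and 1.03, and the interactions of the 5 regions ran from 2.55 to 3.30. Near IQCN all 5 regions had an interaction between 1.07 and 2.63, and the sum fell from 87.4 to 115 CPM to 22.1 to 29.7 in PC9 while H1975 lay between 34.3 and 44.3. The 7 regions of DIRC3, a long noncoding RNA gene, summed to 21.8 to 23.6 CPM in H1975 control and 94.5 to 104 in H1975 DTP libraries, and to 119 to 129 in PC9. NRCAM, a neuronal adhesion molecule, and LINC00524 fell in H1975 only, by sums of −1.75 and −1.89 in the interaction. Of the 8 regions of NRCAM, 5 had an interaction called lower and 2 called higher. ADAMTS9 rose in H1975 only (1.49), in a 10 Mb window whose median region rose by 0.40 in H1975. CYRIA was opposite by sum (−1.01) in a window that fell by 0.34 in PC9, and of its 5 regions 2 were called lower and 1 higher.

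Promoter sequence differed between the classes. A RefSeq window of 250 bases before to 50 after a start was covered by a tested region for 11979 of 35116 promoters, matched by position in the same genome. A CCAAT box on either strand was in 34.6% of all windows and in 37% of those covered. It was in 81.4% of the 511 windows of opposite regions that rose in PC9, 61.1% of the 665 that rose in PC9 only and 62.1% of the 935 that fell in H1975 only. It was in 16.7% of the 72 of opposite regions that rose in H1975 and in 22.2% of the 702 that rose in H1975 only. Of 12 motifs searched, TGANTCA was in 7.71% of all windows and 5.97% of those covered. It was in 26.4% of opposite windows that rose in H1975, 42.4% of the 66 that fell in both lines and 17.5% of the 80 that fell in PC9 only. Windows that fell in both lines had a median GC content of 53.5%, against 66.3% of those covered, and its part was not tested. In H1975 only, TGANTCA was in 9.95% of windows that fell and 4.99% that rose. Among promoter regions with 1 window each, the median interaction was −0.11 at 614 with TGANTCA and −0.08 at 8748 without. The interaction was called lower at 25.7% and higher at 12.4% of the first, against 19% and 8.39%. Calls of both signs were thus more frequent with TGANTCA. The other motifs were the cyclic AMP element TGACGTCA (in 1.85% of all windows), the TEAD motif GGAATG (14%), the ETS motif CCGGAA (17.2%), the SP and KLF motif GGGCGG (45%), the E-box CACGTG (7.26%), the E2F motif GGCGGGAA (3.16%, with letters in common with GGGCGG), the CHR element TTTGAA (15.2%), the YY1 motif AAGATGGC (2.89%), the NRF1 motif GCGCATGC (3.05%) and the FOX motif TGTTTAC (3.42%), all on both strands. Among windows of opposite regions that rose in PC9, E2F was in 8.22% against 5.43% of covered windows, GGGCGG in 81.6% against 73.9% and ETS in 26.2% against 31.8%, so that CCAAT stood furthest from its share among covered windows. A match is a string of letters and no measure of binding.

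The change also went with the number of boxes. Over 9362 promoter regions with 1 window each, the median change in PC9 was 0.11, 0.15, 0.18 and 0.22 for 0, 1, 2 and 3 or more CCAAT boxes. In H1975 it was 0.10, 0.02, −0.10 and −0.23. The medians of the lines were close without a box and apart at 3 or more, and the median interaction ran from −0.01 through −0.13 and −0.30 to −0.44. With 3 or more boxes (476 promoters) the medians of the PC9 DTP libraries were 0.221, 0.223 and 0.213 and of the H1975 DTP libraries −0.22, −0.213 and −0.239, relative to their controls. The interaction was called lower at 10.9% of promoters without a box and at 22.1%, 44.6% and 67.6% of those with 1, 2 and 3 or more, and called higher at 10.7%, 7.41%, 2.1% and 0.84%. With library size alone the H1975 medians were 0.23, 0.15, 0.03 and −0.10, so that its fall was left only at 3 or more boxes, and the order was the same. Opposite regions that rose in PC9 were 1.18% of the first and 27.3% of the last. Promoters share libraries and are not replicates, so no test was made over them.

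Base composition and level differ with the number of boxes. Promoters with 3 or more boxes had a median control level of 47.1 to 58 CPM in PC9 over the tertiles of GC content, against 20.5 to 25.6 without a box, and their part in the result was not tested beyond the following. Within the lowest, middle and highest tertile of GC content the median interaction went from −0.03 to −0.44, from −0.02 to −0.48 and from 0.02 to −0.35 between no box and 3 or more. Of the windows at cell cycle genes, 13 had at least 2 boxes, of which 8 were lower in H1975 and 0 higher, and 7 had fewer, of which 2 were lower and 1 higher. Of those at cholesterol and fatty acid genes, 7 had at least 2 boxes and 6 of these were lower, while 1 of the other 4 was. Over all promoters the interaction was called lower at 44.6% with 2 boxes and at 67.6% with 3 or more. It was called lower at 10.9% without a box and at 22.1% with 1. The counts at these genes are small, and a difference from those shares was not tested.

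**Figure D4:**
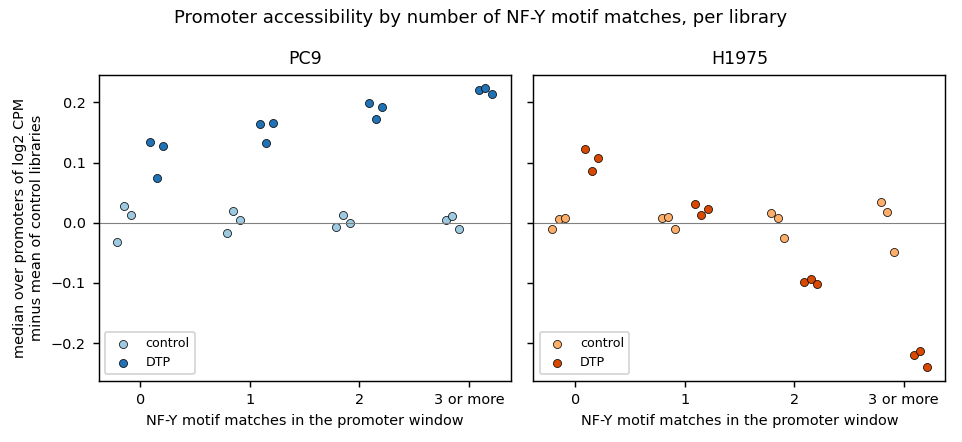
Median over promoters of log2 CPM minus the mean of the line's control libraries, 1 point per library (light, control; dark, DTP), by the number of NF-Y motif matches in the promoter window, for PC9 and H1975. PC9 DTP libraries go up to 0.223 and H1975 DTP libraries go down to −0.239 at 3 or more matches, while controls stay near 0.

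A second reading came from libraries that the classes did not use, the combination against AZD5153 alone in both lines. The interaction there was called at 62% of 45969 regions, higher in H1975 at 14911 and lower at 13609. Single calls thus say little, and signs were compared. The share of each sign over all regions was not counted. Over promoter regions with 1 window each the median interaction there was −0.46, and its part in the shares below was not tested. The interaction had the same sign as before at 79.8% of opposite regions that rose in H1975, where 62.2% were called with the same sign and 9.96% with the other. At opposite regions that rose in PC9 the sign was the same at 68.5% (56.3% and 20.6%). The medians of the first were −0.48 in PC9 and 0.46 in H1975. Those of the second were 0.50 in PC9 and −0.10 in H1975, so that the fall in H1975 was small there. Regions that rose in H1975 only kept the sign at 71.4%, those that rose or fell in PC9 only at 72.8% and 76.3%, and those that fell in H1975 only at 53.7%. The median H1975 change of these last regions was −0.18, and 30.7% had a called interaction of the other sign. By CCAAT number the median interaction was −0.38, −0.52, −0.65 and −0.85, from medians of 0.27, 0.37, 0.47 and 0.59 in PC9 and of −0.13, −0.15, −0.17 and −0.30 in H1975, which were nearly level up to 2 boxes.

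The named regions varied in this reading. Of the 10 named as opposite, 7 had a called interaction of the sign they had before and 3 were not called, and of the 15 named in one line 14 were called with that sign. Of the 30 named from the lists 18 were called with that sign, 5 with the other sign and 7 were not called. Near PRF1 the interaction with AZD5153 was 5.68 ± 0.309 (adjusted p = 3.61e-68), from changes of −3.23 in PC9 and 2.45 in H1975. PPIF changed by 0.70 and −2.49 (interaction −3.20 ± 0.163), TACC3 by −3.20 and 1.15 (4.35 ± 0.349), and VGLL2 by 0.37 and 4.23 (3.86 ± 0.514). MESP2 rose in both lines there, by 0.40 and 2.95. The opposite regions that were not called were those of MARCO (−0.39 ± 0.194, adjusted p = 0.0723), PLCZ1 (0.10 ± 0.172, 0.623) and DHFR2 (0.28 ± 0.204, 0.229), and the values of PLCZ1 and DHFR2 had the other sign. The region of MET rose by 1.69 in PC9 and by 3.65 in H1975, a called interaction of the other sign (adjusted p = 1.28e-08), and those of SMAD3, TGFBR3, BMF and SFTA3 were also called with the other sign. The FOSL2 region was not called (−0.09 ± 0.146, adjusted p = 0.627), nor were those of EGFR, HRK, CIITA, LPCAT1, CDX1, CDH5 and DKFZp451B082. CD274 had an interaction of −1.54 ± 0.494 with an H1975 change of −0.70 that was not called.

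The other EGFR-mutant lines were read at the same regions from their own tables. HCC2935 had 34269 of them, of which 18.6% rose and 16.9% fell in DTP cells. Opposite regions took neither side there, since 25.1% rose and 19.5% fell where H1975 rose, and 20.4% rose and 18.5% fell where PC9 rose. Regions that rose in one line only rose in HCC2935 at 29.9% (H1975) and 25.7% (PC9), and those that fell in one line only fell at 27.4% and 27.1%. Regions that moved the same way in PC9 and H1975 did so in HCC2935 at 63.1% up and 57.8% down. HCC827, with 19917 regions and wider spread, had 2.09% up and 3.19% down, and 9.22% and 5.94% of regions that rose or fell in H1975 only moved that way. The median HCC2935 change by CCAAT number was 0.10, 0.07, 0.01 and −0.04, between those of PC9 and H1975.

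**Figure D5:**
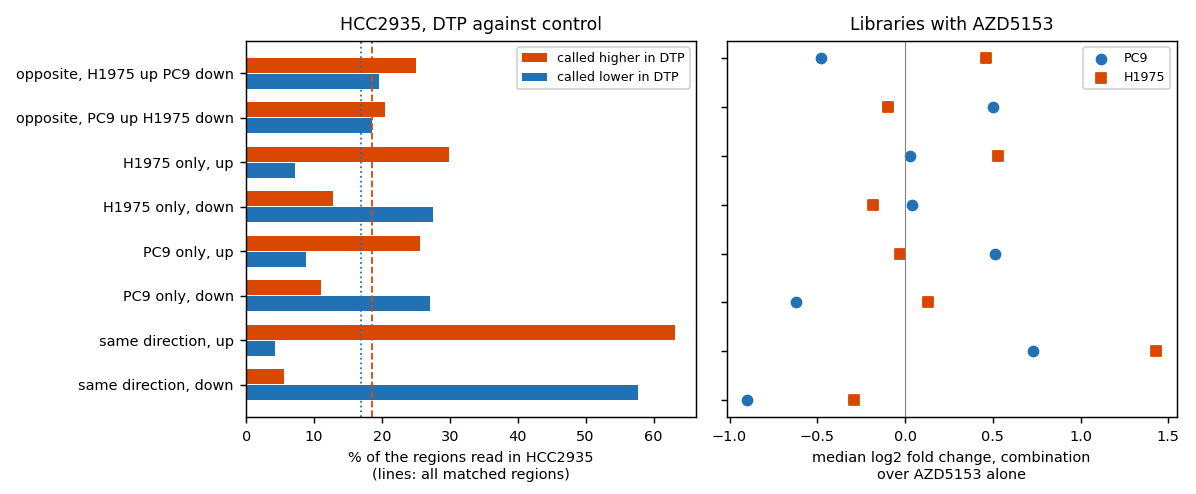
Left, percent of regions of each class called higher or lower in DTP than in control cells of HCC2935 (dashed and dotted lines, all matched regions at 18.6% and 16.9%). Right, median log2 fold change of the combination over AZD5153 alone in PC9 (circles) and H1975 (squares) by class; the opposite classes have medians of −0.48 and 0.46, and of 0.50 and −0.10.

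All p-values rest on libraries that differed little more than counting allows. Between replicate libraries the variance came to 0.955 to 1.19 times the one that counting gives, and in each group the most alike pair (PC9 control 2 and 3, PC9 DTP 1 and 3, H1975 control 1 and 2, H1975 DTP 1 and 3) differed by less than the sampling noise. Counting each such pair as 1 sample left 15839 called interactions, 890 opposite regions that rose in H1975 and 1164 that rose in PC9. The p-values thus measure only the spread between these libraries, which may be technical. With the larger dispersion of HCC2935 in place of the fitted one and each group summed to 1 library, 8216 interactions were called, 317 and 297 of them opposite, and the share of promoters called lower ran from 2.06% without a CCAAT box to 11.8% with 3 or more.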

How the data were processed

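The authors deposited, per cell line, an annotated table of accessible regions with raw read counts per library, and wider tables of all regions. The submitters' processing notes name hg38, BWA 0.7.17, SAMtools 1.9, deepTools 3.4, MACS2 2.2.6, featureCounts 2.0.0 and ChIPseeker 1.29.1, without roles or order; further steps were not given in the sources used here. The extract protocol in the labels describes H3K27ac ChIP, whereas titles give ATAC-seq, and the values were read as ATAC-seq. The members and lists were chosen with earlier results of these data known.

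Regions of PC9 and H1975 were paired one to one by an overlap of at least 50% of their length (34278 of the pairs also lie in the HCC2935 table). Counts of 12 libraries were fitted in edgeR 4.0.16 (R 4.3.3) by the quasi-likelihood F test with group means, TMM factors over the matched regions and the default filter, with a threshold of 0.05 on p-values adjusted by Benjamini-Hochberg over all 46038 tested regions. CPM was scaled to the counts in those regions after TMM. Regions were called opposite (both lines called, opposite signs), called in one line only, or the same direction. Errors are standard errors from the fit. The deposited counts of the combination and AZD5153 groups were fitted the same way, and those of HCC2935 and HCC827 on their own tables (HCC827 with the replicate number as a block). Counts were also simulated for 46030 of the PC9 and H1975 regions, with 100 interactions of each of 2 sizes and 45830 regions without one. Of interactions of 1 and 2 (log2), 68% and 98% were recovered, and 4.05% of calls were of regions without one. Interactions were far rarer there than calls in the data, and libraries were drawn independently with a small fixed dispersion. These figures check the fit and are not the power or error rate of the reported calls.

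Regions were named by rule: for opposite and one-line regions, a called interaction of at least 1, the same nearest gene in both tables, a 10 Mb window with a median change within 0.3 in each line, and separated libraries, of which the 5 largest smaller changes per opposite direction and the 3 largest per one-line direction plus 1 promoter; per gene list, without those limits, the 2 genes with the largest called interaction at a mean level above the median; and sums over at least 5 regions. Names beginning LOC, LINC or MIR were left out of single regions. Alternatives (scaling, test, filter, size, dispersion, matching, bins, replicate block, left-out libraries) are given in the closing section. Promoter windows are those of RefSeq, counted where a region covers at least 150 bases. Columns of the authors' own comparisons, if any, were not used. Replicate numbers did not pair the libraries. Some named items of the lists are not reported here.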

Additional observations from a re-analysis of the deposited data

Results flagged for a closer look

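The difference between the lines in the persister change was itself tested, and 16801 regions passed. Among them were the 994 regions that rose in H1975 and fell in PC9 and the 1322 that did the reverse, which differ in sign between the lines with both lines called.

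Of the named opposite regions, those near PRF1 (interaction 2.72), RPL13 (1.88), EFCAB13-DT (1.91), MESP2 (2.13) and PTGES (1.79) were higher in H1975, and those near PPIF (−3.78), MARCO (−2.47), BLVRA (−2.56), PLCZ1 (−2.20) and DHFR2 (−2.19) were lower. All 10 were picked for large changes in both lines. With libraries that the choice did not use, the combination against AZD5153 alone, 3 of them did not pass (edgeR): those near MARCO (−0.39, adjusted p = 0.0723), PLCZ1 (0.10, 0.623) and DHFR2 (0.28, 0.229), the last 2 with the other sign.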

How the results depend on the processing

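No called interaction was called with the other sign under any alternative. The sign of interactions that lost their call was not counted over all regions. Of 326 counts recomputed 282 stayed within 1.5 times the reported one. The sizes of the classes moved as follows. With a change of at least 1 on the log2 scale asked of each contrast, 7651 interactions remained (3761 higher, 3890 lower), with 63 and 99 opposite regions (H1975 up, PC9 up), 4095 called in H1975 only and 1093 in PC9 only; by gene sum there were 1344, with 11 and 12 opposite, 745 and 145. A filter of 50 mean counts left 6142 interactions (2770 higher, 3372 lower), 384 and 515 opposite, 2914 and 1111 in one line, in part because it tests fewer regions. DESeq2 called 5003 higher, with 474 and 722 opposite regions and 201 and 288 opposite gene sums. The bounded form of the H1975 class held 3496 regions. TMM factors in each line alone left 875 opposite regions that rose in PC9. The dispersion of HCC2935 gave 634 and 691 opposite regions, and by gene sum 3774 interactions, 126 and 144 opposite and 600 in PC9 only. With that dispersion and each group summed, an alternative chosen after seeing the data like the thinning and the paired count, 8216 interactions were called (4172 higher, 4044 lower), 317 and 297 opposite, 5087 and 1189 in one line; by gene sum 1580, with 38 and 39 opposite, 1102 and 208. Apart from these constructions the cause of each shift was not tested.

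Leaving out one library at a time gave 15043 to 16332 interactions, 830 to 1046 and 982 to 1218 opposite regions, 7661 to 8381 called in H1975 only and 2167 to 2750 in PC9 only. With the replicate block 16659 interactions were called, with 1000 and 1307 opposite regions, 8335 in H1975 only and 2558 in PC9 only; same-numbered libraries correlated at −0.041 to 0.053, so the number gives no pairing. Of the named regions and sums, 8 lost the call under at least one alternative (GATA6, CDX1, PDE4B, GSG1L, CD3E, MX2, LINC02809 and LOC285626). Opposite regions among promoters with 3 or more CCAAT boxes went from 14.7% (factors in each line alone) to 27.5% (DESeq2 size factors) across the scalings, and were 0.42% with summed groups. Depth limits what PC9 can show: its median standard error allows smaller changes in H1975 to be called than in PC9, and a region not called in PC9 is not thereby unchanged.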
